A study of Homo sapiens with 4 samples.

Results

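The genes described here handle metal ions: the zinc exporters and importers of the SLC30A and SLC39A families, the metallothioneins with their activator MTF1, and the transport and storage genes of iron, copper and magnesium. They were taken by gene symbol, by a rule that uses no measured value, although earlier results of these data were known. The rule took every listed SLC11A, SLC30A, SLC31A, SLC39A, SLC40A and SLC41A gene, the single-letter MT1 genes, MT2A, MTF1, ATP7A, ATP7B, TFRC, FTH1, FTL and CNNM1 to CNNM4. That gave 52 of the 60656 listed gene IDs. Of these, 35 passed the filter on low counts and were tested, and 10 were listed at 0 in every library.

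Nascent RNA had been measured by TTchem-seq, in which RNA made during a short pulse of 4-thiouridine is purified and sequenced, in HCT116, a cell line from a human colorectal cancer. The 2 DKO libraries came from cells whose TOP2A carries an auxin-inducible degron and whose TOP2B is knocked out. They were given 500 µM auxin for 8 h to deplete TOP2A as well. Both enzymes are human type II topoisomerases, which relieve twist and tangles in DNA. The 2 WT libraries are labelled wildtype, although the protocol text names the TOP2A degron line, with TOP2B intact, as the other arrested culture, and auxin is not recorded for it. Both groups spent 28 h in 2 µM palbociclib, an arrest in G1, before a 30 min label with 1 mM 4-thiouridine. Loss of the enzymes, any difference in auxin and any difference between the cell clones therefore separate the groups together and cannot be told apart. Separate cultures are not recorded for the replicates, so p-values measure only the spread between these libraries.

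Zinc, iron, copper, manganese and magnesium are needed as cofactors but are harmful in excess. SLC30A (ZnT) proteins move zinc out of the cytosol, SLC39A (ZIP) proteins move it in, and metallothioneins are small cysteine-rich proteins that bind zinc, copper and cadmium. MTF1 senses free zinc and switches on metallothionein genes and SLC30A1 through short metal response elements in their promoters. Iron genes are regulated largely after transcription, through the stability and translation of TFRC and ferritin mRNAs.

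Counted reads totalled 53000795 and 53777749 in the DKO libraries and 51718468 and 51142867 in the WT libraries. The intestinal epithelial marker list of 8 genes summed to 442.4 and 427.8 CPM in DKO and to 500 and 467.5 in WT. CPM is each count scaled to its library's total times its TMM normalisation factor, which ran from 0.9923 to 1.005. Of this list KRT8, KRT18 and CDH1 were called lower, with log2 fold changes of -0.21, -0.19 and -0.37. EPCAM (0.04), KRT19 (0.04) and CDX2 (0.19) were slightly higher and not called. VIL1 had 4 to 11 counts per library, too few to test, and CDX1 was at 0 in 3 libraries. Fibroblast markers summed to at most 3.86 CPM and immune markers to at most 0.567 CPM in any library. CSF1R, the only immune marker with enough counts to test, was called lower, with 5 and 9 counts in DKO against 19 and 26 in WT (-1.72, adjusted p = 0.000301), but not without WT replicate 1 (0.0597) or without WT replicate 2 (0.0889). The part of these markers in the results below was not tested. Of 19140 protein-coding genes, 2610 were listed at exactly 0 in all 4 libraries. A member at 0 is therefore given as listed at 0 and not as silent.

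Calls rest on edgeR's quasi-likelihood test, with p-values adjusted by the Benjamini-Hochberg method over all 19103 tested genes and a threshold of 0.05. In DKO against WT, 9 of the 35 tested members were higher (25.7%) and 7 lower, against 19.0% higher and 21.1% lower among all tested genes. In all, 45.7% of tested members were called, close to 40.1% of all tested genes and 45.5% of protein-coding ones. The members' median log2 fold change was -0.04, beside -0.01 over all tested genes. The members' share is thus near the background. DKO and WT values did not overlap for 30 of the 35 tested members, many of them not called. With 2 libraries per group, lack of overlap thus sets called members apart from uncalled ones only weakly. The share of all tested genes without overlap was not counted, so 30 of 35 is not read as a result about the members. An absolute log2 fold change of at least 0.5 was reached by 5 called members, SLC30A10, MT2A, MT1F, MT1E and SLC39A8, against 13.8% of all tested genes and 12.3% of protein-coding ones. Of these only SLC30A10 passed 1, against 4.55% of all tested genes and 3.70% of protein-coding ones. SLC30A10, MT2A, MT1E and SLC39A8 kept their calls under each of the 12 other settings tried. Of the 16 called members, 12 lost the call when a WT library was left out. Over all genes, calls without WT replicate 1 numbered 1023 higher and 928 lower, against 3632 and 4025 with all libraries.

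**Figure D1:**
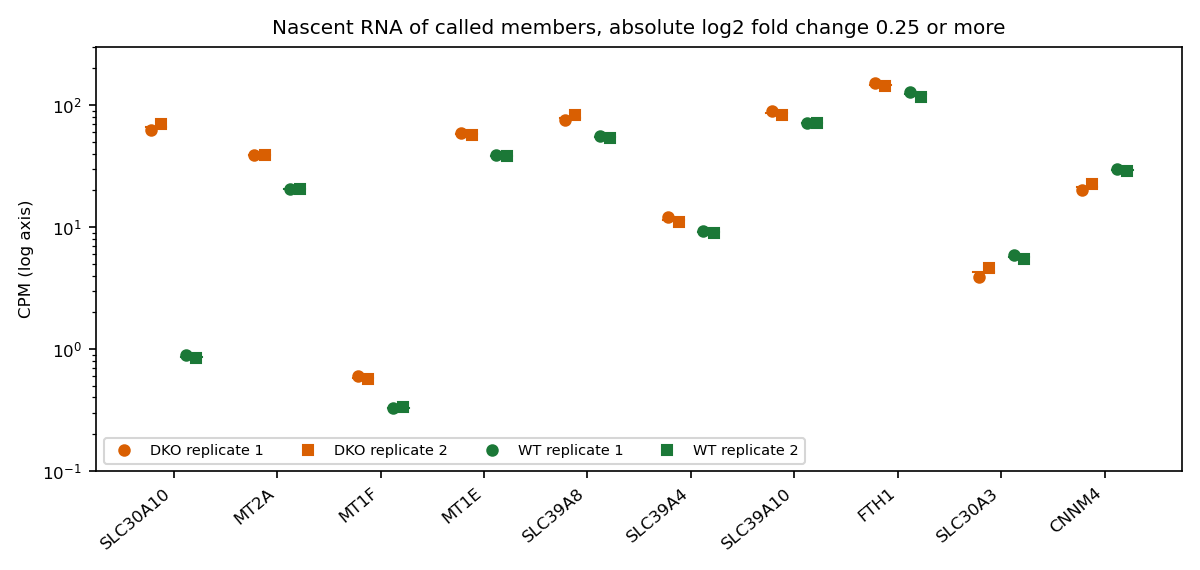
CPM (log axis) of the called members with an absolute log2 fold change of 0.25 or more; circles are replicate 1, squares replicate 2, short lines group means, DKO in orange and WT in green. SLC30A10 stands at 62.7 and 69.9 CPM in DKO against 0.886 and 0.841 in WT, a far wider gap than for any other member shown.

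**Figure D2:**
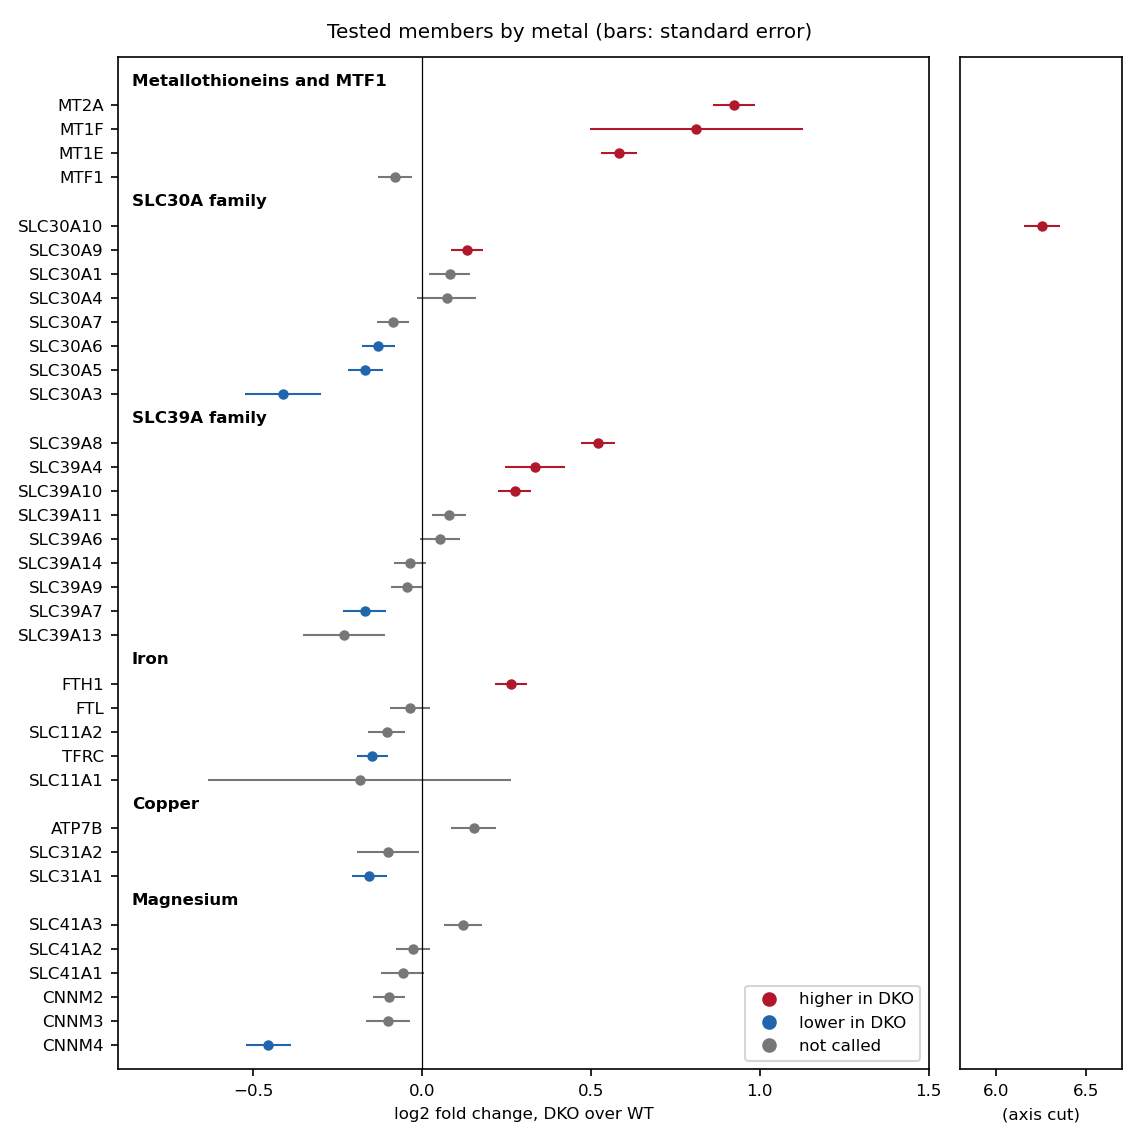
Log2 fold change (DKO over WT) of each of the 35 tested members with its standard error, grouped by metal, with the horizontal axis cut between both panels. Apart from SLC30A10 at 6.26, members lie between -0.46 (CNNM4) and 0.92 (MT2A).

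SLC30A10 encodes a cell surface exporter that differs from its zinc-moving relatives in carrying manganese, and its loss in people causes manganese overload. It had 3340 and 3728 counts in DKO against 46 and 43 in WT, or 62.7 and 69.9 CPM in DKO against 0.886 and 0.841 CPM in WT. The groups were far apart and replicates close together. The gene rose 76.5-fold, by 6.26 ± 0.10 in log2 (SE, n = 2 per group, adjusted p = 2.259e-129). Among all 19103 tested genes it ranked 9 from the top by fold change, and among 13083 protein-coding genes it ranked 4. With any library left out the log2 fold change stayed between 6.18 and 6.33, with an adjusted p of at most 0.00165. In DKO its level per kb of RefSeq span was 1.36 CPM per kb. Its tested relatives ran in DKO from 0.193 (SLC30A3) to 4.27 (SLC30A1), and SLC30A5 (1.31) and SLC30A6 (1.29) were the nearest. In WT SLC30A10 was at 0.0178 CPM per kb.

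The gene lies on chromosome 1 from 219910445 to 219959098 (GRCh38) on the minus strand. Of its nearest tested protein-coding neighbours, ZC3H11B lay 297.3 kb away at lower coordinates, beyond the end of the gene. EPRS1, the glutamyl-prolyl-tRNA synthetase gene, lay 9.502 kb away at higher coordinates, on the side of its start. ZC3H11B had 49 and 50 counts in DKO and 0 in both WT libraries, so it was at least 15.9-fold higher against a floor of 3 counts per WT library. EPRS1 was higher by a log2 of 0.36 (adjusted p = 1.379e-11). The other tested genes within 500 kb were looked at after these values were seen. LYPLAL1-AS1, a long non-coding RNA 353.1 kb before SLC30A10, had 638 and 712 counts in DKO against 7 and 8 in WT, a log2 fold change of 6.42 (adjusted p = 2.96e-81). LYPLAL1 itself, on the same side, rose by 0.83. On the far side of EPRS1, IARS2 rose by 0.25, while BPNT1 (-0.08) and RAB3GAP2 (-0.04) were not called. MORF4L1P1, a pseudogene 294.5 kb from SLC30A10 at higher coordinates, had 8 and 3 counts in DKO against 13 and 10 in WT. It was not called either (-1.10, adjusted p = 0.0753). The large rises on this stretch thus lay at SLC30A10 and beyond its end, on the side of LYPLAL1-AS1. RefSeq places the lncRNA LOC107985281 inside SLC30A10 on the opposite strand, and the strand setting of the counting is not given in the sources used here.

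The 250 bases before the upstream RefSeq start of SLC30A10 are printed because this is the promoter of the member with the largest change. They come from RefSeq (GRCh38.p14), chr1:219959099-219959348, minus strand, 5′ to 3′.
SLC30A10: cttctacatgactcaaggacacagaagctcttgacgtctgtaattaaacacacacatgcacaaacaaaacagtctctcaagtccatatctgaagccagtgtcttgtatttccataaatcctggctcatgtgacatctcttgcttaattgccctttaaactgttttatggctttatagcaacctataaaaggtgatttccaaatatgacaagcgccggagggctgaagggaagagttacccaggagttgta
No metal response element core, in the forms given with the metallothioneins, was found in either of the gene's promoter windows. That says only that those letters are not in these windows.

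Of the 11 genes in the metallothionein class, 4 were tested, and 3 of them rose: MT2A, MT1F and MT1E. Among all tested genes 19.0% were higher. MT2A and MT1E encode metallothioneins made in many tissues. MT2A had 2068 and 2067 counts in DKO against 1055 and 1051 in WT, or 38.8 and 38.7 CPM in DKO against 20.3 and 20.6 CPM in WT. The DKO libraries were almost equal and well above both WT libraries. The log2 fold change was 0.92 ± 0.06 (SE, adjusted p = 9.823e-32), a 1.90-fold rise. MT1E had 58.8 and 56.7 CPM in DKO against 39 and 38 CPM in WT, again without overlap, and rose by a log2 of 0.58 ± 0.05 (adjusted p = 4.603e-20). MT1F, another family member, was near the lower limit of detection, with 32 and 30 counts in DKO against 17 in each WT library, or 0.601 and 0.562 CPM in DKO against 0.328 and 0.333 CPM in WT. It rose by 0.81 ± 0.32 in log2 (adjusted p = 0.0302).

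MTF1, their activator, was not called, at 70 and 66.6 CPM in DKO against 72.7 and 71.8 CPM in WT (log2 fold change -0.08, adjusted p = 0.2). None of the class was called lower in edgeR, and none was lower at an unadjusted p under 0.05, in DESeq2 or in limma voom. MT1A, MT1B, MT1G, MT1H, MT1L, MT1M and MT1X were listed at 0. Metallothionein coding sequences are near-identical, so reads may have been lost or assigned to a relative, and values for single genes of the family are uncertain. Their 9 listed pseudogenes held at most 7 counts together in any library. The call of MT1F was lost with any library left out (adjusted p of 0.087 to 0.151) and in 2 further settings.

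The metallothionein genes form a cluster on chromosome 16 from 56608584 to 56684196, 75.6 kb long and holding 10 members. Of its tested protein-coding neighbours, chosen after the values of the cluster were seen, OGFOD1 (-0.07) and BBS2 (-0.11) on the MT2A side were not called. NUP93, a nuclear pore gene 45.93 kb beyond MT1X, was called at 0.11 (adjusted p = 0.0483), and HERPUD1, a gene of the endoplasmic reticulum stress response 247.9 kb beyond it, rose by 0.33. The changes of MT2A and MT1E were larger than those of any of these 4 genes.

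Promoters of the cluster are shown because metal response elements are where MTF1 binds. The search used the cores TGCACNC and TGCGCNC on both strands, from 250 bases before to 50 after each RefSeq start, and overlapping matches were counted separately. Printed are the 250 bases before the start (RefSeq, GRCh38.p14, 5′ to 3′) of MT2A, chr16:56608334-56608583 on the plus strand, of MT1X at the other end of the cluster, chr16:56682220-56682469 on the plus strand, and of SLC30A1, chr1:211579162-211579411 on the minus strand, a known MTF1 target. Capitals mark the cores on either strand.
MT2A: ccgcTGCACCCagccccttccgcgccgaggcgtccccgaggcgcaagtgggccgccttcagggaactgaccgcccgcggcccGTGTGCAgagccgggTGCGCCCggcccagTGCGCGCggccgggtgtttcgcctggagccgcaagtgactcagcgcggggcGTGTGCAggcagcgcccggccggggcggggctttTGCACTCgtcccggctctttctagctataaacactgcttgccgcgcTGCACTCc
MT1X: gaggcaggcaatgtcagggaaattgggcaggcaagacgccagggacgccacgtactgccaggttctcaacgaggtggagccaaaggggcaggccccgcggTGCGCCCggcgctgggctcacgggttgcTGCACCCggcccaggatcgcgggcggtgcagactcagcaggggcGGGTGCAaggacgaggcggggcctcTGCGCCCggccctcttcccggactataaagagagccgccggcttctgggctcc
SLC30A1: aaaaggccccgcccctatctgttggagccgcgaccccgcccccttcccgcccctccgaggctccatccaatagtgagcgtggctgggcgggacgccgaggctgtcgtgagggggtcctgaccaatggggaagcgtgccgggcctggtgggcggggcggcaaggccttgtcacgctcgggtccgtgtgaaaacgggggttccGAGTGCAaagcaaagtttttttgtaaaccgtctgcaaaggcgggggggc
The MT2A window held 8 cores, 7 of them in the stretch printed, and those of MT1H, MT1X and MT1B held 8, 4 and 3. All 4 promoters had a core starting 53 or 54 bases before the start site and another starting between 78 and 88 bases before it. SLC30A1 had 1 core in the printed stretch and 1 after the start.

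Promoter windows were found for 41 of the 52 members, and 22 of them (53.7%) held a core, against 33.4% of 27305 genes with a window. MT1E, MT1F, FTH1 and SLC39A4, all called higher, had no window. At least 3 cores were found for 6 members (14.6%), against 2.78% of all genes. For the 29 tested members with a window these shares were lower, 44.8% with a core and 6.90% with at least 3. Among tested members with a window, a core was present for 3 of 5 called higher, 3 of 7 called lower and 7 of 17 not called. A match in these letters describes the sequence and does not show binding.

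**Figure D3:**
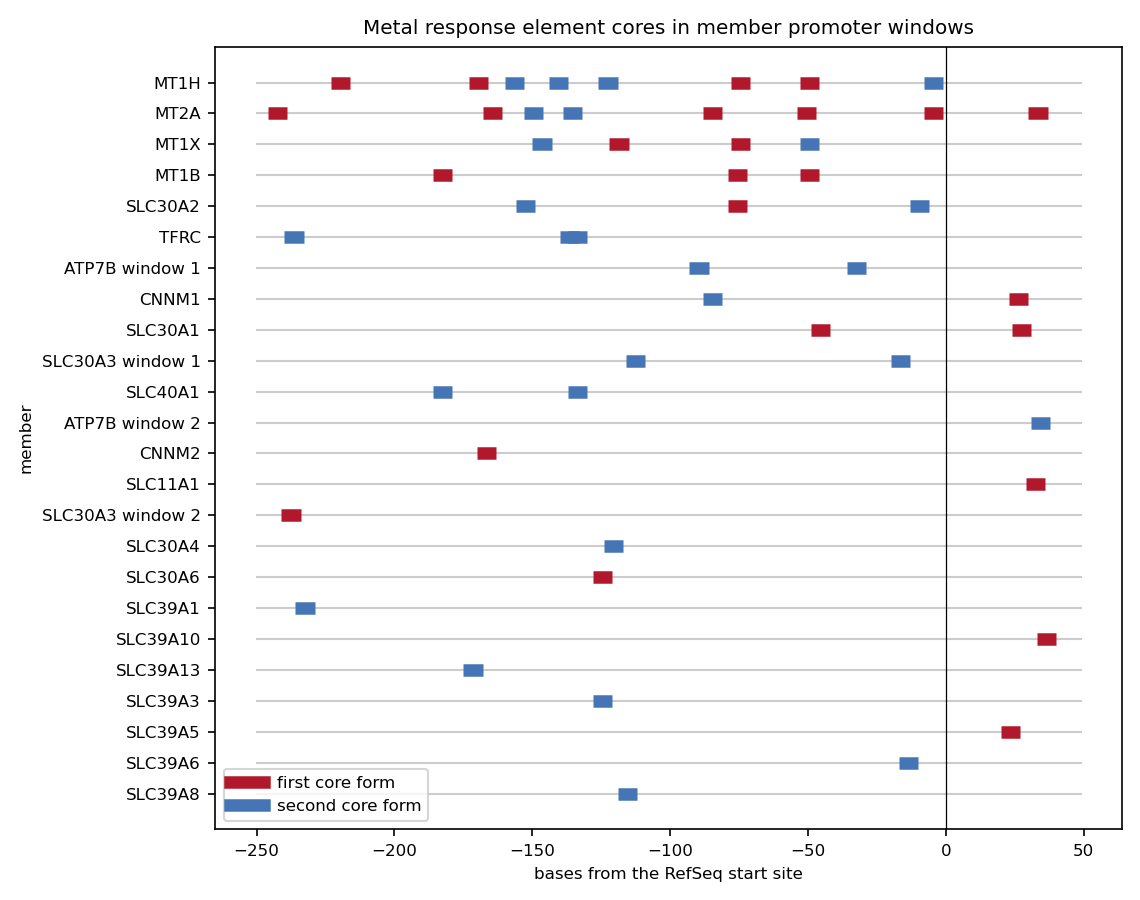
Positions of the metal response element cores in member promoter windows, in bases from the RefSeq start site, for the windows that hold any; red marks the form TGCACNC and blue the form TGCGCNC. The metallothionein windows hold the most, with 8 for MT2A and 8 for MT1H.

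Of 8 tested SLC30A genes, SLC30A10 included, 2 were higher (25.0%) and 3 lower (37.5%), against 19.0% and 21.1% of all tested genes. Apart from SLC30A10, the SLC30A genes moved little. SLC30A9, which exports zinc from mitochondria, rose slightly, while SLC30A3, SLC30A5 and SLC30A6, which load zinc into vesicles or the secretory pathway, fell. SLC30A3, best known from synaptic vesicles, had 3.92 and 4.61 CPM in DKO against 5.94 and 5.42 CPM in WT, a log2 fold change of -0.41 ± 0.11 (adjusted p = 0.00156). Its gene overlaps DNAJC5G by 385 bases. SLC30A5 (-0.17 ± 0.05) and SLC30A6 (-0.13 ± 0.05), whose proteins form a complex in the Golgi, were both lower by about the same small step. SLC30A9 stood at 172.7 and 172.5 CPM in DKO against 151.3 and 163.8 CPM in WT, with DKO above WT in every library (0.13 ± 0.05, adjusted p = 0.01725).

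SLC30A1, the plasma membrane exporter that MTF1 switches on, was not called, at 33.4 and 31.4 CPM in DKO against 29.2 and 32 CPM in WT (0.08, adjusted p = 0.301). The groups overlapped. SLC30A4 (0.07) and SLC30A7 (-0.09), of endosomal vesicles and the Golgi, were not called either. SLC30A2 was listed at 0, and SLC30A8, of insulin granules, had 3 to 5 counts in each library. Without a WT library the calls of SLC30A3, SLC30A5, SLC30A6 and SLC30A9 were all lost (adjusted p of 0.0723 to 0.371), and SLC30A3 (-0.30, adjusted p = 0.0704) and SLC30A6 (adjusted p = 0.0883) also lost theirs without DKO replicate 1. SLC30A9 was then 0.07 without WT replicate 1, and DESeq2's Wald test did not call SLC30A3 or SLC30A6.

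Among the importers, SLC39A8, SLC39A4 and SLC39A10 rose and SLC39A7 fell. Of 9 tested SLC39A genes that is 33.3% higher and 11.1% lower, against 19.0% and 21.1% of all tested genes. SLC39A8 (ZIP8) carries zinc, manganese and iron across the cell surface. It had 3995 and 4392 counts in DKO against 2880 and 2764 in WT, or 75 and 82.3 CPM in DKO against 55.5 and 54.1 CPM in WT. Both DKO libraries lay above both WT libraries, and the log2 fold change was 0.52 ± 0.05 (adjusted p = 1.625e-18), or 1.44-fold. The promoter window of SLC39A8 farthest upstream, the only one of its 3 to hold a core, is shown for comparison with MT2A (RefSeq, GRCh38.p14, chr4:102345483-102345732, minus strand, 5′ to 3′, core in capitals).
SLC39A8: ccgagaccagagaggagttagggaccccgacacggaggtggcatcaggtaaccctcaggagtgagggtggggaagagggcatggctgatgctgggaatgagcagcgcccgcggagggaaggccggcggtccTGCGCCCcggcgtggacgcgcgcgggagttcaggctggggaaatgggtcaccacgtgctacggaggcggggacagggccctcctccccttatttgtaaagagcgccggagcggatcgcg
It held 1 core where MT2A held 8.

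SLC39A4, the intestinal zinc importer that is defective in acrodermatitis enteropathica, stood at 12.1 and 10.9 CPM in DKO against 9.25 and 9 CPM in WT (0.33 ± 0.09, adjusted p = 0.000913). SLC39A10, a surface importer, stood at 90.1 and 82.4 CPM in DKO against 71.4 and 71.2 CPM in WT (0.27 ± 0.05, adjusted p = 8.205e-07). In both cases the groups did not overlap, as for 30 of the 35 tested members. SLC39A7, which releases zinc from the endoplasmic reticulum, had 27.2 and 27.1 CPM in DKO against 33 and 28.1 CPM in WT (-0.17 ± 0.06, adjusted p = 0.0226). WT replicate 1 was well above the other 3 libraries for this gene, and without it the log2 fold change was -0.05 (adjusted p = 0.602). Without WT replicate 2 it was -0.28 (adjusted p = 0.0411), and without either DKO library SLC39A7 was not called (adjusted p of 0.0619 and 0.0682).

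Another 5 importers were not called: SLC39A6 (0.05), SLC39A9 (-0.05), SLC39A11 (0.08), SLC39A13 (-0.23) and SLC39A14 (-0.04). SLC39A14 (ZIP14) carries manganese, zinc and iron like SLC39A8, and was at 170 and 167.6 CPM in DKO against 172.4 and 174 CPM in WT. SLC39A11 had the most reads of any member, at 519 and 541.5 CPM in DKO against 490.6 and 513.7 CPM in WT, over a span of 446.7 kb. Per kb of span it was an ordinary 1.19 CPM in DKO and 1.12 in WT. SLC39A3 was listed at 0, and SLC39A1, SLC39A2, SLC39A5 and SLC39A12 had 1 to 11 counts in each library. SLC39A1 overlaps CREB3L4 at one end in RefSeq. Without either WT library in turn, SLC39A4 (adjusted p = 0.107 and 0.105) and SLC39A10 (0.0901 and 0.0673) were not called.

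For manganese, read across families, the exporter gene SLC30A10 and the importer gene SLC39A8 were thus higher and SLC39A14 was not called. Of the 5 tested companion genes listed for manganese, ATP2C2 and TMEM165 fell. None rose in edgeR, DESeq2 or limma voom, or at an unadjusted p under 0.05. Over all tested genes 19.0% were higher and 21.1% lower, and 5 genes are too few to set this list apart from them. ATP2C2, a calcium and manganese pump of the secretory pathway, was at 8.37 and 9.24 CPM in DKO against 14.9 and 14.3 CPM in WT (-0.73 ± 0.09, adjusted p = 1.02e-13). TMEM165, needed for manganese in the Golgi, fell by 0.27 on the log2 scale and was not called once WT replicate 1 was left out (adjusted p = 0.0523). Of 7 tested companions of zinc, ZNG1E rose (0.22), while the zinc-sensing receptor gene GPR39 (-0.29 ± 0.05) and ZNG1B (-0.24) fell. That is 14.3% higher and 28.6% lower, against 19.0% and 21.1% of all tested genes. The ZNG1 genes, which encode zinc chaperones, are near-identical copies, so their values are uncertain. Without WT replicate 1 these 3 genes were not called (adjusted p of 0.0601 to 0.133), and GPR39 and ZNG1B also not without WT replicate 2 (0.0583 and 0.0939).

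Of the 6 iron members, 5 were tested, with 1 higher and 1 lower. Both shares were near those of all tested genes, 19.0% higher and 21.1% lower. FTH1, the heavy chain of the iron store ferritin, was at 152.1 and 142.6 CPM in DKO against 127.8 and 117.6 CPM in WT (0.26 ± 0.05, adjusted p = 7.73e-07). Both DKO libraries were above both WT libraries. TFRC, the transferrin receptor that brings iron into cells, was at 164.4 and 160.4 CPM in DKO against 182 and 177.6 CPM in WT (-0.15 ± 0.05, adjusted p = 0.00686). FTL, the ferritin light chain, was not called, at 34 and 32.6 CPM in DKO against 33.3 and 35.1 CPM in WT (-0.04, adjusted p = 0.657), and its groups overlapped.

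SLC11A2 (DMT1), the divalent metal importer of gut and endosomes, was also not called (-0.10, adjusted p = 0.118). Its relative SLC11A1, of phagocytes, had 10 to 12 counts per library. SLC40A1 (ferroportin), the iron exporter, had 1 count in each DKO library and 0 in both WT libraries, too few to test. Per kb of RefSeq span FTH1 was the highest of all members, at 44 CPM in DKO against 36.6 in WT, followed in DKO by MT1E (43.3), MT2A (42.4) and FTL (21.2). RefSeq places the end of BEST1 over 1231 bases of FTH1, but BEST1 itself was not called (0.26, adjusted p = 0.644). The 25 FTH1 pseudogenes held at most 11 counts together in any library. Without WT replicate 1 and without WT replicate 2 in turn, the calls of FTH1 (adjusted p = 0.052 and 0.0925) and TFRC (0.176 and 0.0984) were lost.

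The companion genes of iron, 29 of them tested, split into 9 higher (31.0%) and 8 lower (27.6%), against 19.0% and 21.1% of all tested genes. These counts became 2 higher and 3 lower without WT replicate 1, 6 and 3 without WT replicate 2, and 8 and 5 without DKO replicate 2. FLVCR2, a relative of the haem exporter gene and among the 8 lower, passed only narrowly (adjusted p = 0.04989) and was called in none of the 12 other settings. HEPH, a copper-dependent oxidase that works with ferroportin in the gut, had 105 and 115 counts in DKO against 7 and 20 in WT (log2 fold change 2.96 ± 0.25, adjusted p = 1.454e-22). All DKO counts were several times those of WT, but the WT libraries differed, so leaving out WT replicate 1 gave 2.39 and leaving out WT replicate 2 gave 3.91. TF, the gene of the plasma iron carrier transferrin, had 15 and 17 counts in DKO against 4 in each WT library (1.92 ± 0.51, adjusted p = 0.00101). ABCG2, an exporter of haem and many drugs, had 4.86 and 4.22 CPM in DKO against 2.85 and 2.74 CPM in WT (0.70 ± 0.13).

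On the lower side of the iron list, NFS1, which supplies sulphur for iron-sulphur clusters, fell by 0.54 on the log2 scale. It lies on chromosome 20, where 428 tested genes had a median log2 fold change of -0.59. HJV, a co-receptor in hepcidin control, was at -0.53 ± 0.15 (adjusted p = 0.00183), and HMOX2, the constitutive haem oxygenase, at -0.37 ± 0.05 (adjusted p = 7.712e-11). HMOX1, the inducible haem oxygenase, was not called, at 566 and 556 counts in DKO against 541 and 496 in WT. TF lost its call without either WT library (adjusted p of 0.0595 and 0.0769), ABCG2 without WT replicate 1 (0.0594), and HJV without either WT library or without DKO replicate 2, when its value ranged from -0.72 to -0.32.

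**Figure D4:**
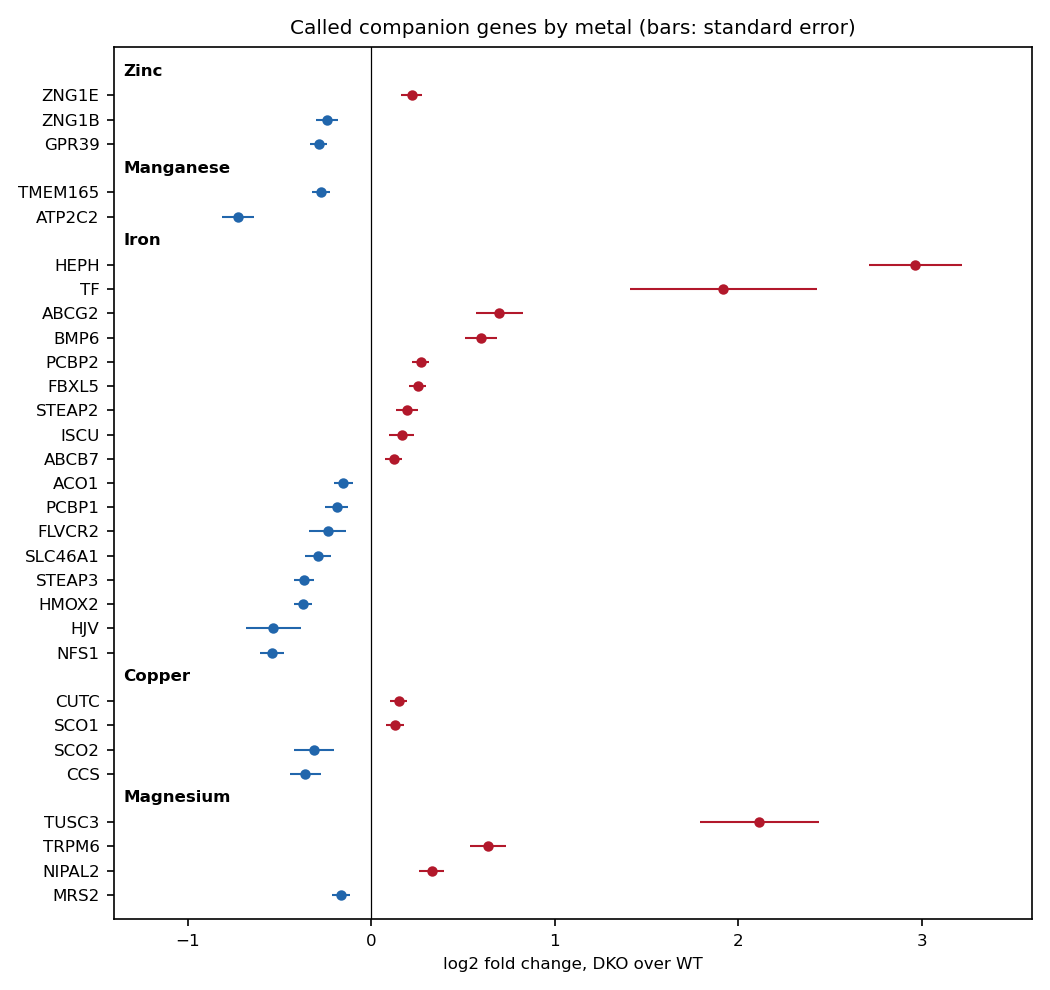
Log2 fold change (DKO over WT) with its standard error of the called companion genes of zinc, manganese, iron, copper and magnesium, red where higher and blue where lower. HEPH (2.96), TUSC3 (2.11) and TF (1.92) lie far to the right, all from fewer than 120 counts per library.

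Of 3 tested copper members, 1 was lower (33.3%, against 21.1% of all tested genes). SLC31A1 (CTR1), the main copper importer, was at 55.5 and 52.2 CPM in DKO against 61 and 59.1 CPM in WT (-0.16 ± 0.05, adjusted p = 0.00973), without overlap. SLC31A2, its relative in endosomes, was not called (-0.10, adjusted p = 0.411). ATP7B, a pump that moves copper into the secretory pathway, stood at 23.1 and 24.1 CPM in DKO against 21.5 and 20.95 CPM in WT (0.15, adjusted p = 0.0602). It passed with DESeq2 size factors, with upper quartile factors and with a stricter count filter (adjusted p of 0.0168 to 0.0443). ATP7A, the second copper pump, was listed at 0. No copper member was called higher in edgeR, DESeq2 or limma voom, and 1 was higher at an unadjusted p under 0.05.

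Among 12 tested copper companions, CUTC (0.15) and SCO1 (0.13) rose, and CCS (-0.36 ± 0.08) and SCO2 (-0.31 ± 0.11) fell. These shares, 16.7% higher and 16.7% lower, were near the 19.0% and 21.1% of all tested genes. CCS hands copper to superoxide dismutase, and both SCO proteins hand it to cytochrome oxidase. ATOX1, the chaperone that serves the copper pumps, was not called (0.10, adjusted p = 0.12). The call of SLC31A1 was lost without either WT library (adjusted p = 0.232 and 0.116) and without DKO replicate 2 (0.129). SCO1 without DKO replicate 1 was 0.06 (adjusted p = 0.396), SCO1, SCO2 and CUTC were not called without either WT library (0.103 to 0.349), SCO2 not without either DKO library (0.055 and 0.0618), and CCS not without WT replicate 1 (0.0663).

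Of 6 tested magnesium members only CNNM4 was called (16.7%, against 40.1% of all tested genes). CNNM4, which extrudes magnesium at the basolateral face of gut epithelium, was at 20.1 and 22.5 CPM in DKO against 29.8 and 28.7 CPM in WT. All DKO values lay below all WT values, with a log2 fold change of -0.46 ± 0.07 (adjusted p = 8.825e-10), 1.37-fold lower in DKO. Its relatives CNNM2 (-0.10, adjusted p = 0.0831) and CNNM3 (-0.10, adjusted p = 0.223) were not called, and CNNM1 had 5 to 14 counts. The transporter genes SLC41A1 (-0.06), SLC41A2 (-0.03) and SLC41A3 (0.12, adjusted p = 0.0744) were not called. No magnesium member was called higher in edgeR, DESeq2 or limma voom, and 1 was higher at an unadjusted p under 0.05. SLC41A3 passed with upper quartile factors and with the stricter count filter (adjusted p of 0.0182 and 0.0442).

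Of 14 tested magnesium companions, 3 rose (21.4%) and 1 fell (7.14%), against 19.0% and 21.1% of all tested genes. TRPM6, a channel with its own kinase that takes up magnesium in gut and kidney, stood at 9.31 and 9.97 CPM in DKO against 6.67 and 5.73 CPM in WT (0.64 ± 0.10, adjusted p = 5.606e-09). Its ubiquitous relative TRPM7 was not called (0.03). TUSC3, linked to magnesium uptake, had 55 and 40 counts in DKO against 9 and 12 in WT (2.11 ± 0.32). NIPAL2 rose by 0.33 and MRS2, the mitochondrial magnesium channel gene, fell by 0.16 on the log2 scale. CNNM4 was not called when WT replicate 1 was left out (adjusted p = 0.0565), nor were TUSC3 (0.057) or NIPAL2 (0.179), while CNNM2 was called without DKO replicate 2 (-0.14, adjusted p = 0.0256). MRS2 was called neither without either WT library (0.205 and 0.211) nor without DKO replicate 2 (-0.10, adjusted p = 0.178).

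Across the 35 tested members Spearman's rho between RefSeq span and log2 fold change was -0.03, given as a description over genes that share the same libraries. Members called higher had a median span of 4.43 kb, from 0.914 to 124.7 kb, and those called lower 37.1 kb, from 3.57 to 58.5 kb. Members that were not called spanned up to 446.7 kb, with a median of 50.02 kb.

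**Figure D5:**
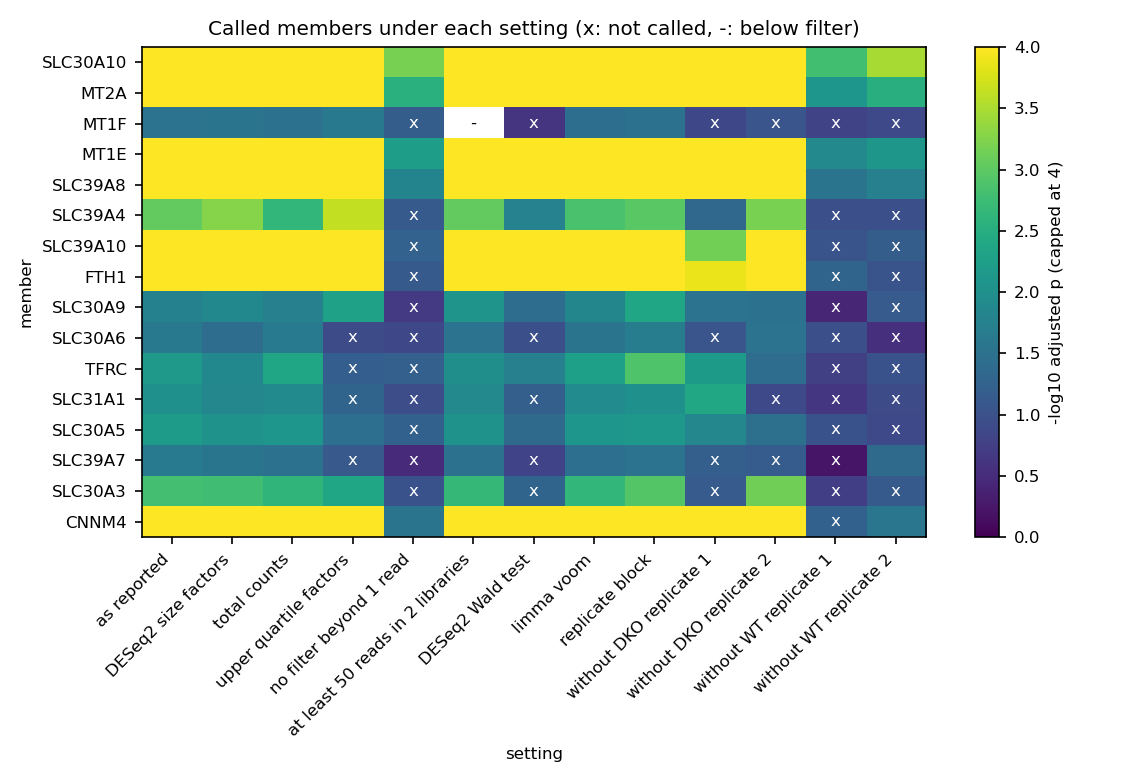
Size of the adjusted p (as -log10, capped at 4) of the 16 called members as reported and under each alternative; a cross marks a setting where the member was not called. SLC30A10, MT2A, MT1E and SLC39A8 have no cross, and most crosses fall in the columns without a WT library and without the count filter.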

How the data were processed

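The files deposited by the authors hold unnormalised read counts for each Ensembl gene in each library. The submitters' processing notes name STAR 2.7.3a, featureCounts 1.6 and build hg38. Libraries were stranded, per the labels' protocols. For the annotation version, the strand setting and whether exons or whole genes were counted, nothing is given in the sources used here, so levels per kb of span are a rough guide and reads of overlapping genes cannot be told apart. No spike-in is recorded, so values are relative to library totals scaled by TMM factors. Symbols were found for 42020 IDs. Counts were fitted with edgeR 4.0.16 in R 4.3.3 (quasi-likelihood test, group as the only term, TMM factors, filterByExpr with a minimum count of 10 and total of 15). Standard errors are the absolute log2 fold change over the square root of F. The fit was tested on simulated data. Coordinates, spans, neighbours and promoters come from RefSeq GRCh38.p14.

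The members, the lists of companion genes and the tests were chosen with earlier results of these data known. Every member is accounted for. Called members are named with their fold change, and those at an absolute log2 fold change of at least 0.5, with all called metallothioneins, have each library's value. Values of other members, of TRPM6, ATP2C2, TUSC3, TF, HEPH, ABCG2 and HMOX1 and of uncalled companions were added after they were seen. From each companion list, up to 3 called genes per direction with the largest change are named. SOD2 had no row and is not analysed here. Alternatives were DESeq2 1.42.0 size factors, total counts, upper quartile factors, other count filters, DESeq2's Wald test, limma 3.58.1 voom, the replicate number as a block, and each library left out, where the spread of the single remaining library is taken from the other group. Figures used matplotlib 3.10.9.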

Additional observations from a re-analysis of the deposited data

How the results depend on the processing

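DKO had 3632 genes higher and 4025 lower of all those tested. Without the count filter these became 1640 and 1655, DESeq2's Wald test gave 2524 lower, and with 1 library left out the counts ran from 1023 to 3127 higher and from 928 to 3443 lower. Members, 9 higher and 7 lower as reported, became 4 and 1 without the filter, with 3 lower under upper quartile factors and 3 under the Wald test. With a library left out there were 4 to 8 higher and 0 to 6 lower.

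Without the filter the classes kept 1 higher and 0 lower in SLC30A, 1 and 0 in SLC39A, 0 and 0 in iron, and 0 lower in copper. With the Wald test 1 SLC30A gene, 0 SLC39A genes and 0 copper genes were lower. With upper quartile factors 0 SLC39A, 0 iron and 0 copper genes were lower, and 1 copper and 1 magnesium gene were higher. At least 50 reads in 2 libraries also gave 1 copper and 1 magnesium gene higher. DESeq2 size factors also gave 1 copper gene higher. The cause was not tested. With a library left out the ranges were 1 to 2 higher and 0 to 3 lower for SLC30A, 1 to 3 and 0 to 1 for SLC39A, 0 to 1 and 0 to 1 for iron, 0 to 1 lower for copper, 0 to 2 lower for magnesium and 2 higher in the metallothionein class. SLC41A2 turned to 0.0085 with upper quartile factors and ran from -0.0777 to 0.0241 with a library left out, and SLC30A4 from -0.0281 to 0.1769.

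Same-numbered replicates deviated together by a correlation of only 0.011, so the numbers were not taken to pair the samples. With the replicate block 9 members were higher and 7 lower, and 3742 and 4078 of all genes. With the core TGCACNC alone, 13 members held a promoter motif in place of 22. Genes with few counts, such as MT1F, TF and TUSC3, are limited by depth. Their standard errors cover only counting error and the spread between these libraries.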
